A study of Mus musculus with 2 samples.

Results

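Chemokines and the inflammatory cytokines Il1b and Tnf were followed in primary CD11b-positive mouse cells that lack interferon regulatory factor 8 (IRF8 KO), against wild-type (wt) cells. The genes were chosen by name: Ccl6, Ccl9, Cxcl10, Cxcl16, Il1b, Tnf and every other listed symbol made of Ccl or Cxcl and a number. This gave 11 genes of 7976 with a listed probe, namely 5 CC chemokines, 4 CXC chemokines and both cytokines, with 1 probe each. Of these, 6 were listed on both arrays, 3 on replicate 1 only and 2 on replicate 2 only.

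The study hybridised 2 two-colour arrays, each with IRF8 KO RNA labelled with Cy3 and wt RNA labelled with Cy5, from cells given no treatment. CD11b, or integrin alpha M, is carried on the surface of neutrophils, monocytes, macrophages and some other leukocytes. The arrays are described as biological replicates. The strain, age and number of mice, the organ and the selection of CD11b-positive cells are not given in the sources used here. Both arrays carried the dyes the same way round, so dye and genotype cannot be told apart at any probe. Irf8 was not analysed here, since 0 probes bore its name, and the genotypes were therefore taken from the labels alone. A spot was listed only where both channels passed a minimum signal, so a probe that was dim in either genotype on an array has no value there. Because RNA came from bulk cells, fewer cells of a type and less RNA per cell cannot be told apart.

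Chemokines are small secreted proteins that guide leukocytes along gradients by binding G protein-coupled receptors, and the CC and CXC families are named after the spacing of their first cysteines. Myeloid cells both make and follow them, together with the cytokines interleukin-1 beta and tumour necrosis factor, which activate NF-kB and spread inflammation. IRF8 is a transcription factor that directs the development of monocytes, dendritic cells and some macrophages and restrains that of neutrophils. It binds DNA with partners, among them PU.1 on composite Ets-IRF elements and other IRF proteins on interferon-stimulated response elements.

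The promoters of 5 genes are shown because their ratios carry the results below, with sequence from RefSeq on build GRCm38.p6 and 5′ to 3′ on the gene's own strand. Each window holds 250 bases before and 50 bases after the start of transcription, and 8 of the 11 genes had one. Ccl11, Cxcl16 and Cxcl17 were not matched. Ccl9 (chr11:83578587-83578886, minus strand) and Ccl6 (chr11:83593038-83593337, minus strand) are related genes close to each other on chromosome 11, with the gene E230016K23Rik between them in RefSeq, and the capitals mark the stretch in which the windows align.
Ccl9: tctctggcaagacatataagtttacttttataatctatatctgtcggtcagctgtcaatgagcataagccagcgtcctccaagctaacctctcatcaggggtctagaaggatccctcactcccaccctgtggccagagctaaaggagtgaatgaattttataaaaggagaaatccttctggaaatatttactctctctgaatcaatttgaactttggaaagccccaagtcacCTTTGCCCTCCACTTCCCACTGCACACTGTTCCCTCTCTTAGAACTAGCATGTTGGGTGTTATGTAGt
Ccl6: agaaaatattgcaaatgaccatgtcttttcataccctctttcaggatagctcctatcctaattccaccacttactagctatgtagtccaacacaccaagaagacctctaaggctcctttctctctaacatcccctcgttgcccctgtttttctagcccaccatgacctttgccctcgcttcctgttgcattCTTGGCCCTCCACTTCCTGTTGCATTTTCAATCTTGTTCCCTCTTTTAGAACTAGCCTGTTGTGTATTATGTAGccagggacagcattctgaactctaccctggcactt
The aligned stretch has 74 columns, 58 of them (78.4%) identical and 7 with a gap. It covers bases 233 to 299 of the Ccl9 window and 192 to 265 of the Ccl6 window, so it lies around the start of transcription in both.

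Cxcl10 (chr5:92348840-92349139, minus strand), Il1b (chr2:129371090-129371389, minus strand) and Tnf (chr17:35201958-35202257, minus strand) represent the CXC chemokines and both cytokines. In Cxcl10 the capitals mark an interferon-stimulated response element followed by an NF-kB motif. In Il1b and Tnf they mark a TATA box.
Cxcl10: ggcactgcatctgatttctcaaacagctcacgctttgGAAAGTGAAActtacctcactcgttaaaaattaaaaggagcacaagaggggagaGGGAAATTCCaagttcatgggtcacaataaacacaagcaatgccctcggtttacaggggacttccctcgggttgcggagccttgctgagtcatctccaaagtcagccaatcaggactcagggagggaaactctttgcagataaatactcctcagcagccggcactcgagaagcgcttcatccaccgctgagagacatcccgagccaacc
Il1b: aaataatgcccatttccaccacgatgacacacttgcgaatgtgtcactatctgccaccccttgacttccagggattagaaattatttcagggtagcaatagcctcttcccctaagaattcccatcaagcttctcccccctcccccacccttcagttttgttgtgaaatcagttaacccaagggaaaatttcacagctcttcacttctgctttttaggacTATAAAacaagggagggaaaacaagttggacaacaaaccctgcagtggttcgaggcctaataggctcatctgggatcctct
Tnf: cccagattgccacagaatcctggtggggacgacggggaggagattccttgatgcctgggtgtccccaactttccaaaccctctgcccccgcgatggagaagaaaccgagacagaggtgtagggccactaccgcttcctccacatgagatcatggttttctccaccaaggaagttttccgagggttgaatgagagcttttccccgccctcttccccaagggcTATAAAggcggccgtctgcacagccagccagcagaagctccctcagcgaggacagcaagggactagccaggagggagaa
Motifs were searched on both strands of the 8 windows and of 32851 RefSeq promoter windows of the same length. The interferon-stimulated response element, GAAA and GAAA with 2 bases (NN) between, was found in 1 window, that of Cxcl10, and in 3.44% of all windows. The Ets-IRF composite, GGAA and GAAA with 2 bases between, was found in 1 window, that of Ccl8, and in 2.72% of all windows. The IRF-Ets composite, GAAA and GGAA with 2 bases between, was found in 0 of the 8 windows and in 2.8% of all. These motifs can overlap each other, since each is built from GAAA and a nearby GGAA or GAAA. The NF-kB motif, GGGA and TTCC with 2 bases between, was found in Cxcl10 and Cxcl2, that is in 2 of the 8 windows, and in 1.47% of all. The AP-1 motif, TGANTCA, was found in Ccl9 and Cxcl10 and in 7.81% of all windows, the C/EBP motif, TTGCNNAA, in 0 of the 8 and in 10.8% of all, and TATAAA in Ccl8, Ccl9, Il1b and Tnf and in 13.6% of all. A match describes the letters in these windows and is not a measured binding site.

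Ccl9 and Il1b fell in IRF8 KO cells, and the other 4 genes listed on both arrays did not pass the test. Ccl9 was 3.93-fold lower and Il1b 2.6-fold lower in IRF8 KO cells, on the mean of 2 arrays. Il1b was 1.44-fold lower on replicate 1 and 4.71-fold lower on replicate 2. It did not pass with centred arrays (limma adjusted p = 0.111) or with an intensity trend (0.081). Ccl6 and Ccl11 had mean ratios near 2-fold lower, Ccl8 a smaller one, and Tnf was the one gene of the 6 with a mean ratio above 0. Of the 5 genes listed on 1 array, Cxcl10, Cxcl16 and Cxcl2 were more than 2-fold lower in IRF8 KO cells there, Cxcl17 was 1.46-fold lower, and Ccl22 was close to even.

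Ratios below are log2 of IRF8 KO over wt as deposited, so negative values mean lower in IRF8 KO cells. A gene is called where limma's adjusted p, taken over the 5192 genes listed on both arrays, is under 0.05. Of the 6 tested genes 2 were called, where 6.22% of all genes were. Both calls were lower in IRF8 KO cells, where 3.41% of all genes were called lower, and 0 were called higher, where 2.81% of all genes were. At an unadjusted limma p under 0.05, 4 of the 6 (Ccl9, Il1b, Ccl6 and Ccl11) were lower in IRF8 KO cells, where 10.5% of all genes were, and 1, Tnf, was higher, where 5.66% of all genes were. An exact sign-flip test over 2 arrays cannot go below p = 0.5. The median ratio of the 6 genes was -1.03, beside -0.21 over all 5192 genes. On the single arrays these medians were -0.87 and -0.97 on replicates 1 and 2 for the 6 genes, and 0.03 and -0.42 for all genes, so replicate 2 as deposited lay below 0 as a whole.

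**Figure D1:**
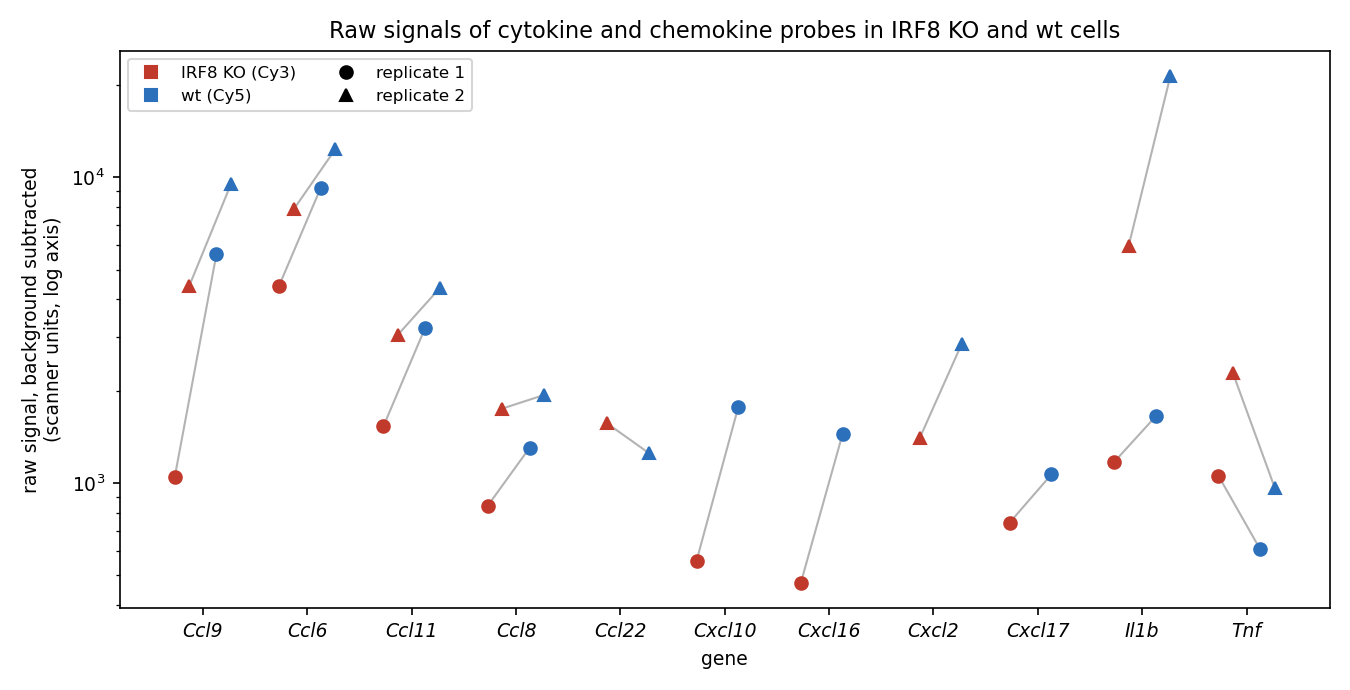
Raw background-subtracted signals of the 11 genes on a log axis in scanner units, with IRF8 KO (Cy3, red) left of wt (Cy5, blue), replicate 1 as circles and replicate 2 as triangles, and a line joining the channels of an array. Ccl9 falls between 1047 and 4422 in IRF8 KO cells, below 5607 to 9525 in wt cells, while Tnf is higher in IRF8 KO cells on each array.

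Among the CC chemokines, Ccl9 differed most. It is a mouse chemokine that acts through the receptor CCR1 on myeloid cells. Its raw signals were 1047 and 4422 in IRF8 KO cells on replicates 1 and 2, against 5607 and 9525 in wt cells. The groups did not overlap, and IRF8 KO cells were lower on each array. Its log2 ratios were -2.45 and -1.50, a fold of 5.45 on replicate 1 and 2.83 on replicate 2. The mean was -1.97 ± 0.67 (SD, n = 2; 95% interval -2.75 to -1.19; limma adjusted p = 5.78e-05). It ranked 33 from the lowest among the 5192 genes. The call held with arrays centred on their medians (limma adjusted p = 0.0261), and an ordinary t statistic per gene, which has 1 residual degree of freedom, gave an adjusted p of 0.766. The probe of Ccl9 is placed at chr11:83388376-83388446 (mouse build 37, the deposited annotation).

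Ccl6 is the neighbour of Ccl9, with 13352 bases between the probes on build 37 (Ccl6 at chr11:83401799-83401869), and it too acts through CCR1 in the mouse. Its raw signals were 4422 and 7862 in IRF8 KO cells, against 9255 and 12377 in wt cells. The groups did not overlap. The ratios of Ccl6 were the most alike of the 6 genes on the arrays, -1.09 and -1.05, with a mean of -1.07 ± 0.03 (SD, n = 2), or 2.1-fold lower. Ccl6 missed the threshold (limma adjusted p = 0.0927), also with centred arrays (0.119) and with an intensity trend (0.33). It passed with loess within arrays (-0.84, limma adjusted p = 0.0443), where 658 of all genes were called, against 323 with the deposited ratios. Ccl6 and Ccl9 were both at least 2-fold lower on both arrays, that is 2 of the 6 genes, where 2.75% of all genes were. At least 2-fold higher on both arrays were 0 of the 6, where 2.16% of all genes were. With centred arrays only Ccl9 met that rule, and with loess 0 of the 6 did.

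Ccl11 (chr11:81875792-81875862), or eotaxin, attracts eosinophils through CCR3. It had raw signals of 1536 and 3063 in IRF8 KO cells, against 3225 and 4348 in wt cells, again without overlap. Its mean was -1.0 ± 0.14 (SD, n = 2; limma adjusted p = 0.133), 2-fold lower. Ccl8 (chr11:81930056-81930126), a chemokine of the same chromosome 11 cluster, had 845 and 1756 in IRF8 KO cells, against 1306 and 1945 in wt cells. These groups overlapped, since the IRF8 KO signal of replicate 2 exceeded the wt signal of replicate 1. The mean of Ccl8 was -0.60 ± 0.08 (SD, n = 2; limma adjusted p = 0.515), and its probe matched 2 gene IDs, so that it may read a close relative as well. Of the 6 genes, raw signals were lower in IRF8 KO cells without overlap in 3 (Ccl9, Ccl6 and Ccl11), where 7.24% of all genes were, and higher without overlap in 1 (Tnf), where 7.74% of all genes were. Raw signals carry no scaling between arrays.

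Ccl22, which attracts T cells through CCR4 and is typical of activated dendritic cells, was listed on replicate 2 only. Its raw signal was 1573 in IRF8 KO cells, against 1258 in wt cells. After normalization its log2 ratio was -0.07, so the raw signals and the deposited ratio of Ccl22 point in opposite directions. The deposited normalization added a constant of -0.392 on the log2 scale to every ratio of replicate 2, taken as IRF8 KO over wt. With the array centred on its median the ratio was 0.24. No direction is given for it.

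The CXC chemokines were each listed on 1 array and have no replicate. Cxcl10 attracts T cells and NK cells through CXCR3 and is induced by interferons and NF-kB. Its probe (chr5:92775934-92776004) had a raw signal of 558 in IRF8 KO cells on replicate 1, against 1776 in wt cells, with a log2 ratio of -1.70 (3.24-fold lower). Cxcl16 is made as a membrane-bound protein that is shed by the protease Adam10 and binds CXCR6. Its probe (chr11:70267870-70267940) had 474 in IRF8 KO cells on replicate 1, against 1452 in wt cells, with a ratio of -1.64 (3.12-fold lower). Cxcl10 and Cxcl16 were thus alike in size, and 1.75% and 1.86% of the probes listed on replicate 1 had lower ratios. The lowest signal listed on replicate 1 was 451, so the IRF8 KO signals of both lay near the lowest values, which limits both ratios.

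Cxcl2 (chr5:91334679-91334749), a neutrophil attractant that binds CXCR2, had 1410 in IRF8 KO cells on replicate 2, against 2852 in wt cells. Its log2 ratio was -1.41 (2.65-fold lower), and -1.10 with the array centred on its median. Cxcl17 (chr7:26187187-26187257), a chemokine best known from mucosal tissue, had 744 in IRF8 KO cells on replicate 1, against 1069 in wt cells (-0.55). Of the 3 genes listed on replicate 1 only, 2 were at least 2-fold lower in IRF8 KO cells, where 15.2% of the 382 genes listed on that array only were. Of both genes listed on replicate 2 only, 1 was, where 4.36% of 2386 such genes were. Genes listed on replicate 1 only had a median ratio of -0.32, so a low ratio was more frequent among them than among all genes of that array, of which 6.1% were at least 2-fold lower in IRF8 KO cells. Of the 9 genes listed on replicate 1, 5 were at least 2-fold lower there, and of the 8 listed on replicate 2, 4 were, where 9.49% of all genes on replicate 2 were.

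Il1b (chr2:129190728-129190798) encodes the precursor of interleukin-1 beta, which caspase-1 cleaves in the inflammasome. Its raw signals were 1173 and 5968 in IRF8 KO cells on replicates 1 and 2, against 1656 and 21442 in wt cells. The groups overlapped, and wt cells of replicate 2 stood far above the other 3 values. Its ratios were -0.52 on replicate 1 and -2.24 on replicate 2, with a mean of -1.38 ± 1.21 (SD, n = 2; 95% interval -2.16 to -0.60; limma adjusted p = 0.0132). The spread of Il1b was the widest of the 6 genes, and the limma fit gave every gene the same SD of 0.56, so its own spread did not enter the call. The call ended with centred arrays (-1.23, limma adjusted p = 0.111) and with an intensity trend (limma adjusted p = 0.081). Without replicate 2 the ratio of Il1b was -0.52, against -2.24 without replicate 1.

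Tnf (chr17:35336699-35336769) encodes tumour necrosis factor, which the protease Adam17 sheds from the membrane. It ran the other way. Its raw signals were 1059 and 2290 in IRF8 KO cells, against 609 and 967 in wt cells, without overlap. The ratios were 0.77 and 0.85, with a mean of 0.81 ± 0.06 (SD, n = 2; 95% interval 0.03 to 1.59), or 1.76-fold higher in IRF8 KO cells. It was not called (limma adjusted p = 0.281), also with centred arrays (0.103) and with an intensity trend (0.0712). Tnf passed with loess within arrays (0.98, limma adjusted p = 0.0142). In the order of mean ratios (Ccl9, Il1b, Ccl6, Ccl11, Ccl8, Tnf), each neighbour's 95% interval overlapped the next. The interval of Tnf did not overlap those of Ccl9, Il1b, Ccl6 or Ccl11. All these intervals rest on the shared SD of 0.56, so they have the same width and do not measure each gene's own spread.

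**Figure D2:**
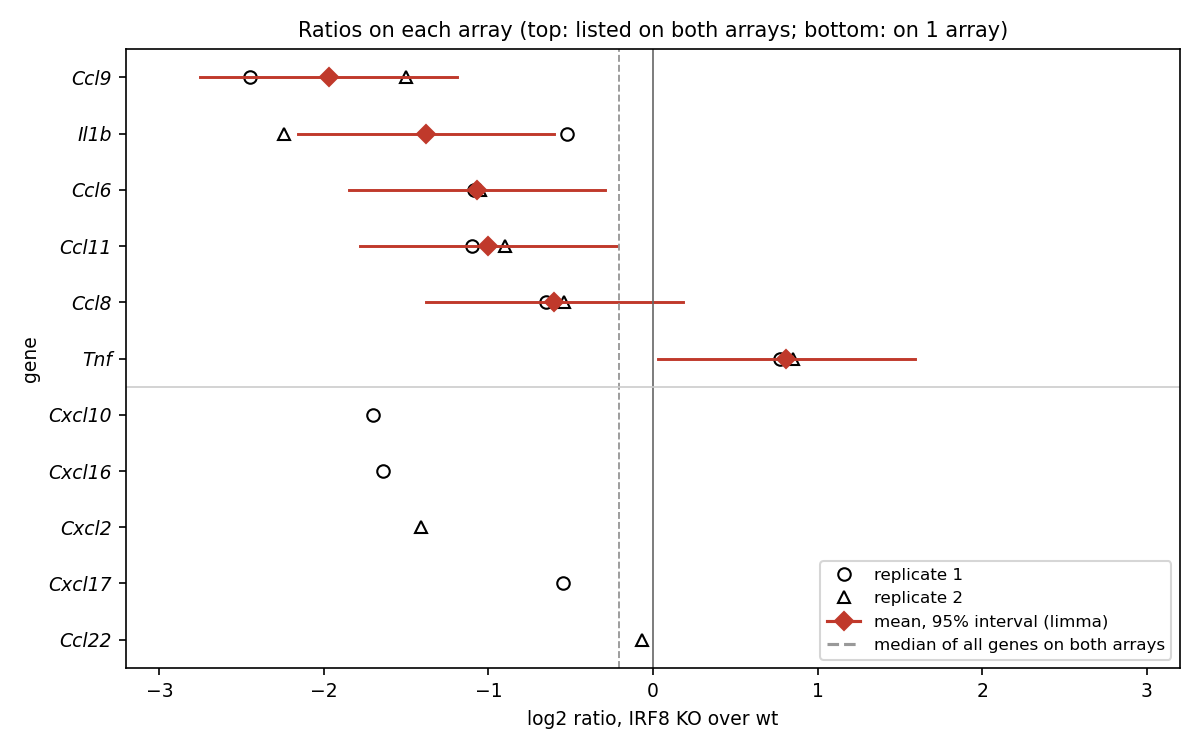
Log2 ratios of IRF8 KO over wt on replicate 1 (circles) and replicate 2 (triangles), with the mean and limma's 95% interval in red for genes on both arrays, and genes on 1 array in the lower panel. Of the 11 genes, only Tnf lies above 0 in these deposited ratios, and Ccl22 lies close to 0 (-0.07) and is given no direction. The arrays differ most for Il1b (-0.52 and -2.24).

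Genes with the most similar pair of ratios were found by the Euclidean distance over the 2 arrays, which with so few points describes position only. Nearest to Ccl9 were Rtl8c (0.025), Ddit4, a stress-induced inhibitor of mTORC1 (0.21), and Prdx1, a peroxidase (0.24). Nearest to Il1b were Zfp36l1, a protein that binds AU-rich elements and destabilises mRNAs (0.046), Rasgef1b (0.11) and Tnnt3 (0.16). Among the nearest to Ccl6 were LOC100503379 (0.033) and Rpl19 (0.08), and among the nearest to Ccl11 Nlgn2 (0.031) and Mettl26 (0.045). Nearest to Ccl8 were Dok1 (0.01), Eif5b (0.015) and Usp9y (0.016), and to Tnf Dennd11 (0.024), Atp6v0c (0.069) and Dars (0.07).

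No chemokine receptor gene was called. Of 22 CC and CXC chemokine receptor genes in the list, 6 were on both arrays and 0 were called in either direction by limma, as were 0 at an unadjusted p under 0.05. Their median ratio was 0.03, and 4 of the 6 were above 0 on replicate 1 and below 0 on replicate 2, as were 36.1% of all genes. Ccr1, the receptor of Ccl6 and Ccl9, named for that role after its values were seen, had ratios of 0.70 and -0.78. Cxcr2, the receptor of Cxcl2, had 0.86 and -0.62, and Cxcr4, the receptor that holds leukocytes in the bone marrow, 1.18 and -0.40. Ackr2, a scavenger of inflammatory CC chemokines, had the largest mean in size (-0.70 ± 0.49, SD, n = 2; limma adjusted p = 0.402).

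**Figure D3:**
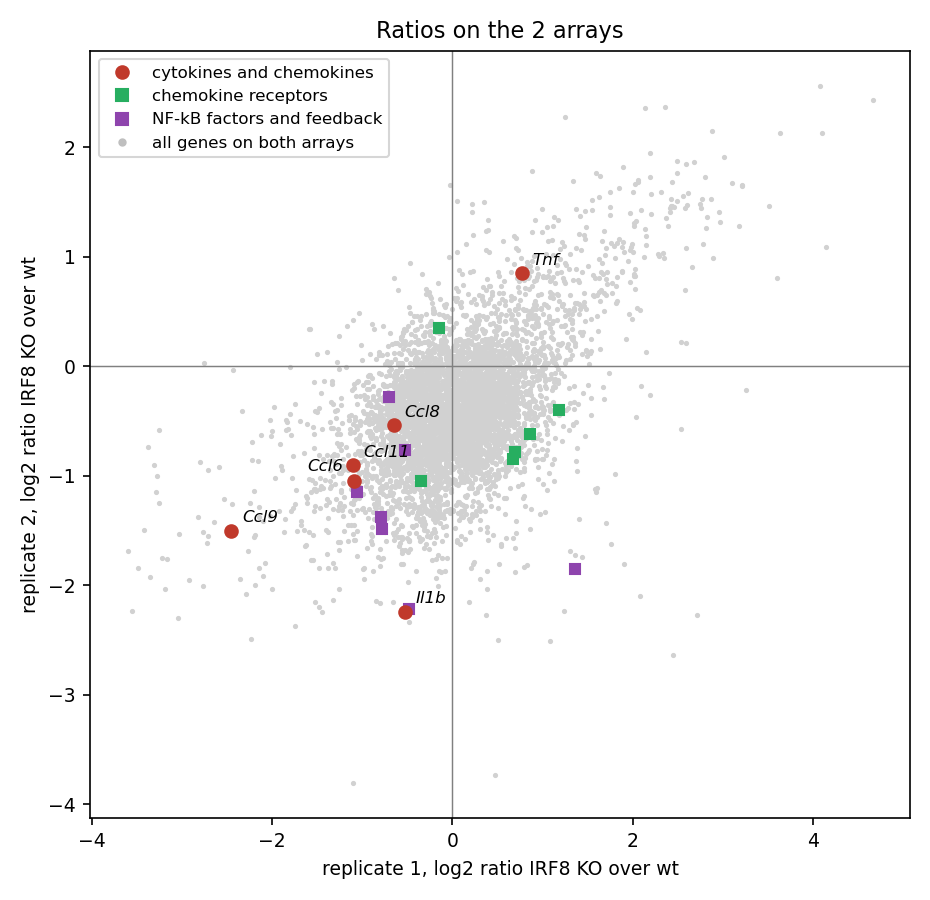
Log2 ratios of IRF8 KO over wt on replicate 1 (x axis) and replicate 2 (y axis) for the 6 cytokine and chemokine genes on both arrays (red), chemokine receptors (green), NF-kB factors and feedback genes (purple) and all 5192 genes (grey). Ccl9, Ccl6, Ccl11, Ccl8 and Il1b lie in the lower left, Tnf in the upper right, and 4 receptors in the lower right.

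Of the genes that process and sense both cytokines, Casp1 and Tnfrsf1b fell in IRF8 KO cells. In the interleukin-1 list, 2 of 10 genes on both arrays were called lower, where 3.41% of all genes were. They were Il1b, already reported above, and Casp1, the caspase that cleaves the interleukin-1 beta precursor (-1.23 and -1.13, mean -1.18 ± 0.07, SD, n = 2; limma adjusted p = 0.0489). Casp1 did not pass with centred arrays (limma adjusted p = 0.0843) or with the brightest probe per gene (0.0537). Nor did it pass without multiply matching probes (0.0533) or in a fit per probe (0.0588). Its adjusted p ran from 0.0196 to 0.194 over the limma alternatives. The receptor kinase Irak1 stood at -0.48 and the inflammasome adaptor Pycard at 0.34, neither called. The median of the list was -0.12. In the tumour necrosis factor list, which includes Tnf itself, 1 of 6 genes was called lower, where 3.41% of all genes were. It was Tnfrsf1b, a receptor of Tnf (-1.65 and -1.49, mean -1.57 ± 0.11, SD, n = 2, limma adjusted p = 0.00301). Its raw signals were 1752 and 2021 in IRF8 KO cells, against 5392 and 4335 in wt cells. The groups did not overlap, and the call held with centred arrays (limma adjusted p = 0.0308). Tnf and its receptor Tnfrsf1b thus had ratios of opposite sign on both arrays. Ltb, which encodes lymphotoxin beta, was below 0 on both arrays (-0.43 and -1.26, mean -0.84) and was not called. The median of that list, Tnf included, was -0.02.

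The list of NF-kB factors and feedback genes, which also holds the mRNA-destabilising Zfp36 and Zfp36l1, had a lower median, -1.09. Of its 7 genes, 6 were below 0 on both arrays, where 43.7% of all genes were. The same held for 5 of the 6 cytokine and chemokine genes. Only Zfp36l1 passed (-1.35 ± 1.23, SD, n = 2; limma adjusted p = 0.0163), and it did not with centred arrays (limma adjusted p = 0.121) or an intensity trend (0.159). The NF-kB subunits Nfkb2 (-1.13 ± 0.50; limma adjusted p = 0.0657) and Relb (-1.10 ± 0.06; limma adjusted p = 0.0788) and the atypical IkB protein Bcl3 (-1.09 ± 0.42; limma adjusted p = 0.0826) missed the threshold (SD, n = 2 each). Zfp36, whose protein destabilises Tnf mRNA and which was named after its values were seen, had 1.36 on replicate 1 and -1.85 on replicate 2. Of 16 other cytokine and receptor genes of myeloid cells, 0 were called in either direction by limma, and 1 was lower in IRF8 KO cells at an unadjusted p under 0.05. The largest ratios among them were Tgfbr2 (-1.06 ± 0.71), Ifnar1 (-0.72) and Il4ra (-0.59), and the median was -0.39.

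**Figure D4:**
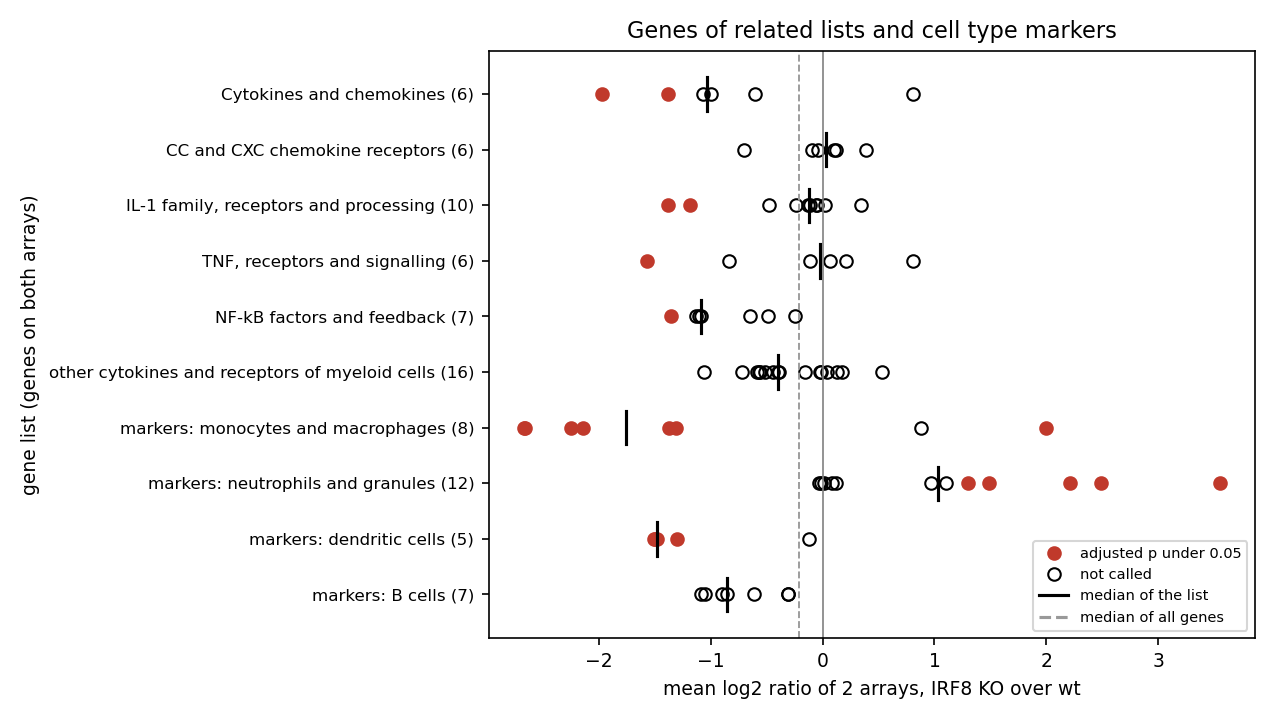
Mean log2 ratios of IRF8 KO over wt for genes on both arrays, by list (number of genes in brackets), with called genes filled in red, the list's median as a bar and the median of all genes dashed. The cytokines and chemokines have a median of -1.03, the chemokine receptors 0.03, the macrophage markers -1.75 and the neutrophil markers 1.04.

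Markers of cell types moved on the same arrays. Of 8 monocyte and macrophage markers on both arrays (of 20 in the list), 6 were called lower and 1 higher. The summed raw signals of the 8 were 78224 and 109562 in IRF8 KO cells on replicates 1 and 2, against 233034 and 130768 in wt cells. Without Csf1r, the brightest, the sums were 70440 and 102371 in IRF8 KO cells, against 170134 and 103874 in wt cells. Those of replicate 2 were nearly even. Without the 2 markers with a signal of 60000 or more, they were 33602 and 58067 in IRF8 KO cells, against 138826 and 69484 in wt cells. The median ratio of the 8 was -2.76 on replicate 1 and -0.98 on replicate 2. With centred arrays 4 of the 6 were called, without Mpeg1 (limma adjusted p = 0.14) and Marco (0.344), and Marco had ratios of -2.76 and 0.03. Of 12 neutrophil markers (of 21), 5 were called higher and 0 lower, with sums of 382028 and 491928 in IRF8 KO cells, against 165890 and 346920 in wt cells. Above 0 on both arrays were 6 of the 12, and the other 6 were above 0 on replicate 1 and below 0 on replicate 2. The median ratio of the 12 was 1.56 on replicate 1 and 0.19 on replicate 2. Of these 12, 6 had a probe with a signal of 60000 or more, near the scanner's ceiling, and without them the sums were 76657 and 126060 in IRF8 KO cells, against 20026 and 78184 in wt cells. Of 5 genes listed as dendritic cell markers (of 13), 4 were called lower, Ly6d among them. The sums were 6573 and 21118 in IRF8 KO cells, against 15276 and 55256 in wt cells. With centred arrays 0 of the 5 were called (limma adjusted p from 0.0543 to 0.0967 for those 4). Ly6d gave much of the dendritic cell sums, which without it were 3485 and 8655 in IRF8 KO cells, against 9997 and 12709 in wt cells. Its ratios were -0.80 and -2.16. The medians on replicates 1 and 2 were -1.15 and -1.02 for the dendritic cell markers and -0.12 and -1.53 for the B cell markers. Whether the Ly6d signal came from dendritic cells was not tested. Of 7 B cell markers (of 10), 0 were called by limma. At an unadjusted limma p under 0.05, 4 were lower in IRF8 KO cells, where 10.5% of all genes were. Their sums over the 7 were 76801 and 119693 in IRF8 KO cells, against 76383 and 200250 in wt cells. The B cell gene Cd79a, named after its values were seen, had raw signals of 44842 and 57822 in IRF8 KO cells, against 47390 and 63068 in wt cells. It was the brightest of the 7, with a signal above 60000. Without Cd79a the sums were 31959 and 61871 in IRF8 KO cells, against 28993 and 137183 in wt cells. None of 13 T and NK cell markers was on both arrays, and of 11 erythroid and platelet markers 1 was, Hbb-b1 (-1.10, not called). Some defining markers, among them Elane, Ly6g, Itgax and C1qa, were not analysed here. The part of these cell types in the ratios of Ccl9, Il1b and the other ligands was not tested.

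**Figure D5:**
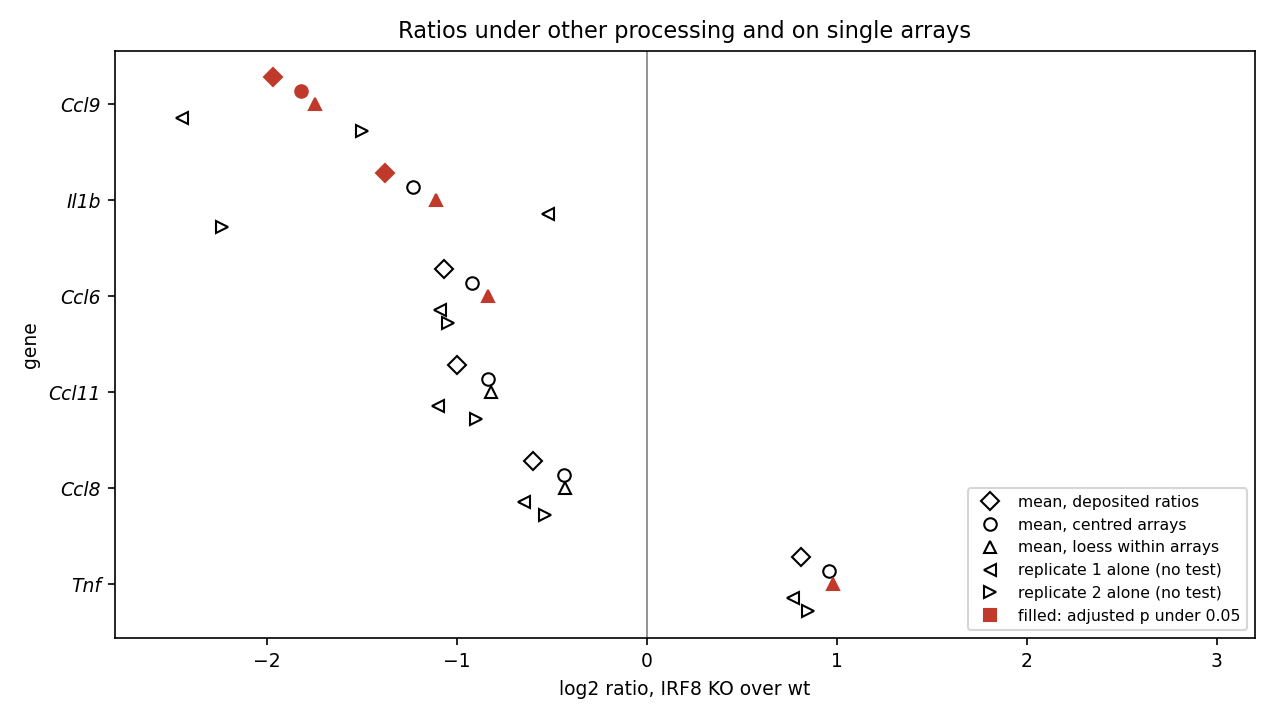
Log2 ratios of IRF8 KO over wt of the 6 genes on both arrays, as the mean of the deposited ratios, with centred arrays, with loess within arrays, and on each array alone, filled in red where the adjusted p is under 0.05. Ccl9 is called in all 3 fits drawn, Il1b in 2 of them, and Ccl6 and Tnf with loess only.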

How the data were processed

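The deposited table held log2 ratios of Cy5 over Cy3, normalized by the authors to the 50th percentile, and raw intensity values (mean minus median background), per the file headers. Control spots were excluded, and a spot was kept only if each channel reached a signal of 100 and a signal-to-background ratio of 1, per the file headers. A second deposited table held the same log2 ratios with its columns exchanged against the array names, which were followed here. Replicates 1 and 2 listed 6119 and 8702 probes, and 5678 were on both. The sign was changed so that ratios read IRF8 KO over wt, probes of a gene were averaged, and each gene's mean was tested against 0 with limma 3.58.1 (R 4.3.3; eBayes, two-sided, Benjamini-Hochberg adjustment), whose prior degrees of freedom were infinite. A call then meant a mean of at least 1.18 in size. The smallest exact sign-flip p with 2 arrays is 0.5. Of 8459 probes with a gene ID, 8370 had one that matched RefSeq, used for names.

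The genes and lists were chosen with earlier results of these data known. All members were named. Of the other lists, called genes were named and otherwise up to 4 with the largest mean ratio, and for each member the 3 nearest genes; a gene named outside this rule is said to be, and a few names are not reported here. Called marker genes are given as counts. The fit was run on simulated data with known changes and noise of the shared SD. Those data held no shift between arrays and no spread particular to a gene, so they cannot test these limits. Alternatives were centring, loess, an intensity trend, an ordinary t statistic, filters on dim, bright and multiply matching probes, another choice of probe, a fit per probe and single arrays. The number of arrays limits the precision.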

Additional observations from a re-analysis of the deposited data

How the results depend on the processing

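All 6 genes kept their direction under every alternative run. Over all genes, 79 were called lower with centred arrays, 277 with loess and 0 with the ordinary t statistic, against 177 as reported. Called higher were 381 with loess and 0 with the ordinary t statistic, against 146, and 302 genes had an unadjusted p under 0.05 with the latter test. Higher calls made up 66.9% of calls with centred arrays and 57.9% with loess, against 45.2%. Genes at least 2-fold lower on both arrays numbered 83 with centred arrays and 58 with loess, against 143, and genes 2-fold higher 195 with loess, against 112. With the intensity trend 132 of all genes were called lower and 107 higher. Among the 6 genes, 1 was called lower with centred arrays, 1 with the intensity trend, 3 with loess and 0 with the ordinary t statistic, against 2. Loess also called 1 of the 6 higher, against 0. At least 2-fold lower on both arrays were 1 with centred arrays and 0 with loess, against 2. For Tnfrsf1b, Casp1, Zfp36l1 and Tnfsf13b the same alternatives, and for the marker lists the centred calls and reduced sums, were added after seeing the data. The causes were not tested; the ordinary t statistic rests on 1 residual degree of freedom. On single arrays, with no test, the ratios ran from -2.45 to -1.50 for Ccl9, -2.24 to -0.52 for Il1b, -1.09 to -1.05 for Ccl6, -1.10 to -0.90 for Ccl11, -0.65 to -0.54 for Ccl8 and 0.77 to 0.85 for Tnf. A count of calls cannot be had from 1 array. Each ratio already pairs IRF8 KO and wt RNA within an array, and the fit tested the mean of these ratios against 0. Only 1 group of ratios exists, so no further pairing was possible. Low signals, down to 474 for Cxcl16 in IRF8 KO cells, limit ratios of the dim probes.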

Other observations

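A further 27 interleukin and tumour necrosis factor superfamily genes were picked by symbol after the data had been seen. Of these, 12 were on both arrays, where limma called 1 higher and 0 lower (median -0.22). The gene called higher was Tnfsf13b, which encodes the B cell survival factor BAFF. Its ratios were 2.38 and 1.36 on replicates 1 and 2, with a mean of 1.87 ± 0.72 (SD, n = 2; 2 probes averaged), or 3.65-fold higher in IRF8 KO cells (limma adjusted p = 0.000172). The call held with centred arrays (adjusted p = 0.0118), loess (4.86e-06) and an intensity trend (0.00433), and ended with the ordinary t statistic (0.766). Among those not called, Il4i1, an amino acid oxidase of myeloid cells whose probe matched several genes, had -0.97 and -1.0, Il2rg, the common gamma chain, -0.29 and -1.63, and Il1f9, an interleukin-36 cytokine, 1.26 and 0.06 (limma adjusted p = 0.444, and 0.0377 with loess).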
